A study of Ovis aries with 6 samples.

Results

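The genes described here are 57 genes of NF-kB and innate immune sensing, measured by RNA sequencing in cultured primary granulosa cells from Hu sheep. They were taken from the deposited sheet of 1620 genes that the authors had called changed. A gene was included when the authors' KEGG annotation placed it in at least 1 of 7 pathways (TNF, NF-kappa B, IL-17, NOD-like receptor, Toll-like receptor, RIG-I-like receptor, cytosolic DNA sensing) and not in cytokine-cytokine receptor interaction. SOD2 and IRAK3 were added by name, and ICAM1, IRF7 and LOC101114226 were left out by name. Not all 57 products act inside the cell: the annotation also brought in secreted proteases, S100 proteins and surface adhesion molecules.

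Granulosa cells are the somatic cells around the oocyte. They were isolated from follicles of at least 3 mm from slaughterhouse ovaries of sexually mature animals and cultured. Cells received, by lipid transfection, either a small interfering RNA that targets INHBA (siINHBA, 3 libraries) or a negative control (siNC, 3 libraries). The INHBA product is a hormone subunit, found in activin A and inhibin A. RNA was taken after 24 h. All 6 libraries thus come from transfected primary cells, and the labels name neither the animals nor separate cultures behind a replicate, so p-values rest on library-to-library spread alone and part of it may be technical. The series title gives its purpose as exploring what INHBA does in these cells.

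NF-kB is a family of dimeric transcription factors held in the cytoplasm by inhibitory proteins of the IkB family. Receptors for TNF, interleukins and microbial molecules, and intracellular sensors of foreign nucleic acid or bacterial fragments, act through adaptor proteins, ubiquitin ligases and kinases to remove the inhibitor and free the dimer. Many of the genes it then induces encode its own inhibitors, which makes the pathway self-limiting. In the ovary the pathway is known from ovulation, which shares many features of an inflammatory reaction.

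Counts over the 1620 listed genes ran from 1590871 to 2042924 in siINHBA libraries and from 2781548 to 2948524 in siNC libraries. Dividing each count by its FPKM (fragments per kilobase of transcript, scaled to the library's mapped fragments) gave the depth of whole libraries relative to siNC library 1. It lay between 0.952 and 1.17 in siINHBA and between 1 and 1.05 in siNC. INHBA, the siRNA target, had 8.02, 6.51 and 7.54 FPKM in siINHBA libraries 1, 2 and 3, against 21.2, 21.8 and 18.5 FPKM in siNC libraries 1, 2 and 3. Its log2 fold change, siINHBA over siNC, was -1.49 (SE 0.14, edgeR quasi-likelihood adjusted p = 3.9e-06), and -0.41 with the TMM scaling described below (edgeR adjusted p = 0.018). Of 16 granulosa cell markers 5 were listed (INHA, INHBA, HSD17B1, CYP11A1 and NR5A1). Markers outside the sheet, FSHR, CYP19A1 and FOXL2 among them, could not be seen.

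Most of the NF-kB and innate sensing genes were higher after INHBA knockdown. Of the 57 genes, 38 were higher and 19 lower in siINHBA (edgeR quasi-likelihood, Benjamini-Hochberg adjusted over 1620 genes, threshold 0.05). All 57 passed, but so did every listed gene (100% called), because the authors had listed called genes alone. The direction is therefore what can be read against the sheet as a whole, where 34.3% of genes were called higher and 65.7% lower, against 66.7% higher among the 57. The median log2 fold change was 1.34 for the 57 genes and -1.16 for all 1620. Fold changes ran from -2.42 for ARRDC4 to 6.23 for MMP13. The FPKM values of the groups did not overlap for any of the 57, as for 99.9% of listed genes.

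The 38 higher genes remained called as higher when libraries were scaled by TMM over the listed genes, a scaling that assumes most of them unchanged. That scaling raised the median log2 fold change of all listed genes by 1.09, so genes already higher could hardly lose their call. It left 5 of the 19 lower genes called: MAP2K6, RPS6KA5, ANTXR1, ITPR3 and ARRDC4. Under it 34.3% of all listed genes were called higher, the same share as at the recovered depth, and 22.5% lower. Falls described below for genes other than these 5 hold relative to the recovered depth only.

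**Figure D1:**
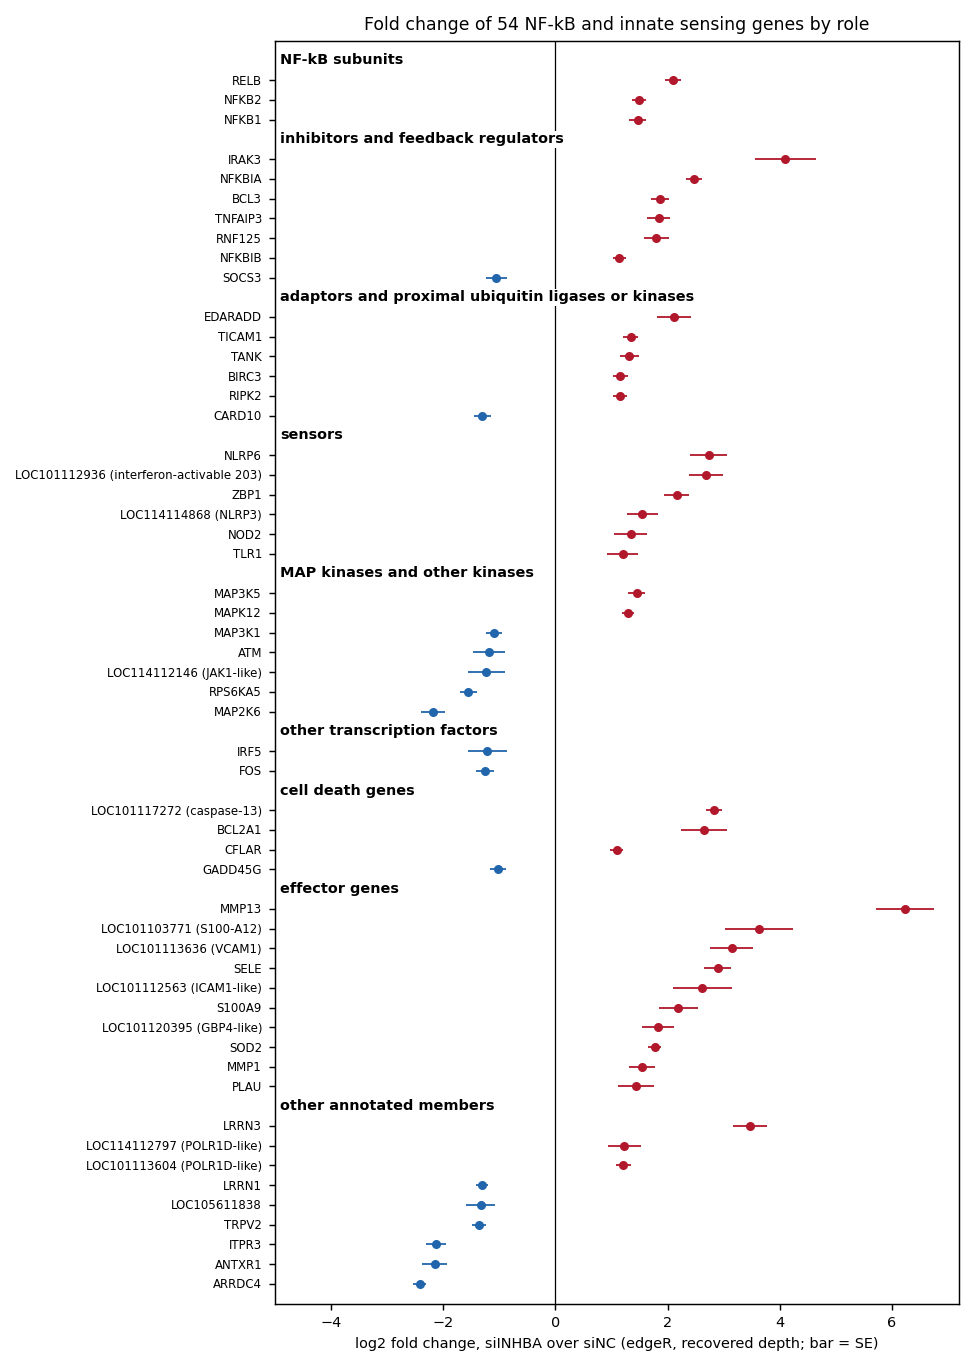
Log2 fold change (x axis, siINHBA over siNC, recovered depth) of 54 of the 57 genes, grouped by role, with bars of 1 SE from the edgeR fit of 3 siINHBA and 3 siNC libraries. The 3 NF-kB subunits, 6 sensors and 10 effector genes all lie to the right of 0, whereas FOS and IRF5 lie to the left, as do SOCS3 and GADD45G, which are above 0 with TMM.

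All 3 listed NF-kB subunits were higher. NFKB2 encodes p100, the precursor of p52. It had 38.1, 47.1 and 52.7 FPKM in siINHBA libraries 1, 2 and 3, against 15.9, 16.6 and 16.4 FPKM in siNC libraries. The lowest siINHBA library was far above the highest siNC library, at a log2 fold change of 1.49 (edgeR SE 0.13, adjusted p = 3.0e-06). RELB, the partner of p52 in the non-canonical branch of the pathway, had 16.4, 17.1 and 21.8 FPKM in siINHBA libraries and 4.42, 4.26 and 4.25 FPKM in siNC libraries. Its log2 fold change of 2.10 (SE 0.14) was the largest of the 3 subunits, and the siNC libraries were tightly grouped. NFKB1, which encodes p105 and p50 of the canonical branch, had 9.99, 13.4 and 15.3 FPKM in siINHBA libraries and 5.13, 4.63 and 5.11 FPKM in siNC libraries. Here siINHBA library 1 was the lowest of its group by a clear margin, and the log2 fold change was 1.47 (SE 0.15, edgeR adjusted p = 7.2e-06). RELA and REL, the remaining subunits, were not among the listed genes and were not analysed here.

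Inhibitors and feedback regulators rose in 6 of 7 cases. NFKBIA encodes IkB-alpha, the inhibitor that NF-kB itself induces. It had 66.1, 69.3 and 82.1 FPKM in siINHBA libraries, against 15.7, 11.6 and 11.9 FPKM in siNC libraries. The means were 72.5 ± 8.46 and 13.1 ± 2.31 FPKM (SD, n = 3 each), a 5.55-fold higher level in siINHBA, or 2.47 on the log2 scale (SE 0.15, edgeR adjusted p = 7.3e-07). NFKBIB, encoding IkB-beta, had 32.2, 30.4 and 37.3 FPKM in siINHBA libraries and 15.7, 15.3 and 14.4 FPKM in siNC libraries. The 2 inhibitors thus stood at similar FPKM levels in siNC, and NFKBIA was higher than NFKBIB in each siINHBA library. The NFKBIB log2 fold change was 1.14 (SE 0.12), so the 2 estimates lie several standard errors apart, although their difference was not itself tested.

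BCL3, a nuclear member of the IkB family that binds p50 and p52, had 12.6, 11.7 and 15.2 FPKM in siINHBA libraries, against 4.21, 3.42 and 3.25 FPKM in siNC libraries. TNFAIP3 encodes A20, an enzyme that edits ubiquitin chains and shuts off signalling from TNF and Toll-like receptors. Its values were 12.5, 14.5 and 19.2 FPKM in siINHBA libraries and 5.36, 4.02 and 3.47 FPKM in siNC libraries. Both genes were separated between groups, with log2 fold changes of 1.86 (SE 0.16) for BCL3 and 1.84 (SE 0.20) for TNFAIP3 (edgeR adjusted p = 2.9e-06 and 1.0e-05). RNF125, a ubiquitin ligase that marks the RNA sensor RIG-I for degradation, had 8.16, 9.29 and 5.17 FPKM in siINHBA libraries and 2.14, 2.45 and 1.89 FPKM in siNC libraries. Library 3 was the lowest of the siINHBA group for this gene, and the log2 fold change was 1.80 (SE 0.22).

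IRAK3 encodes IRAK-M, a kinase-like protein that restrains interleukin-1 and Toll-like receptor signalling. It had 2.63, 2.48 and 2.04 FPKM in siINHBA libraries, against 0.224, 0 and 0.176 FPKM in siNC libraries. The counts behind these values were 219, 226 and 210 in siINHBA and 20, 0 and 17 in siNC, so the siNC level rests on few reads and on 1 library listed at 0. How reads were assigned to transcripts is not given in the sources used here, so that 0 may not mean absence, and without siNC library 2 the log2 fold change was 3.52. With all 6 libraries it was 4.10 (SE 0.55, edgeR adjusted p = 4.1e-05), whereas the authors' deposited table gives 1.40 for IRAK3. SOCS3, an inhibitor of cytokine receptors that signal through JAK kinases, was the exception in this role. It had 3.13, 2.00 and 2.59 FPKM in siINHBA libraries and 5.72, 4.72 and 5.58 FPKM in siNC libraries, or -1.05 on the log2 scale (SE 0.18, edgeR adjusted p = 2.5e-04). With TMM over the listed genes SOCS3 was at 0.04, on the other side of 0 (edgeR adjusted p = 0.90).

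**Figure D2:**
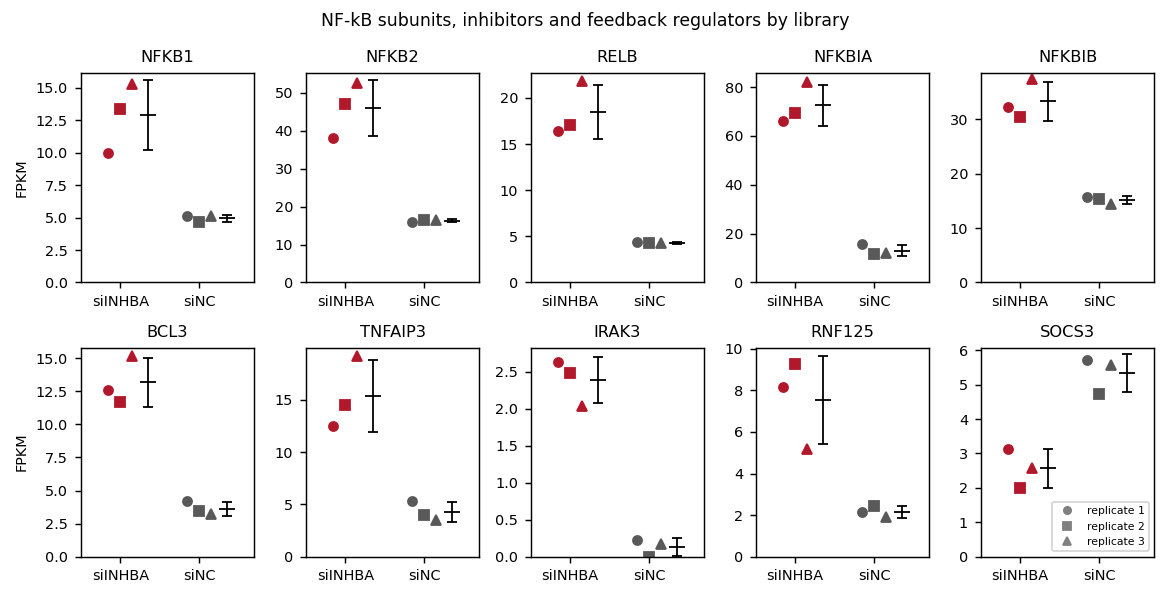
FPKM (y axis, from 0) of the 3 NF-kB subunits and 7 inhibitors or feedback regulators in each siINHBA library (red, left) and siNC library (grey, right), with marker shape for the replicate number and black bars for mean and SD (n = 3). The groups do not overlap in any panel, and of the 10 panels only SOCS3 shows siINHBA below siNC (0.04 on the log2 scale with TMM).

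Adaptors and the enzymes next to receptors rose in 5 of 6 cases. TICAM1, also called TRIF, carries signals from TLR3 and TLR4. It had 13, 16.4 and 18.4 FPKM in siINHBA libraries and 6.30, 6.73 and 5.90 FPKM in siNC libraries. RIPK2, the kinase that acts below the NOD receptors, had 22.0, 17.6 and 19.3 FPKM in siINHBA libraries and 9.42, 8.56 and 8.49 FPKM in siNC libraries. In both genes the lowest siINHBA library exceeded the highest siNC library, with log2 fold changes of 1.34 (SE 0.14) for TICAM1 and 1.15 (SE 0.12) for RIPK2. CARD10, a scaffold that links receptors to BCL10 and MALT1 outside the immune system, moved the other way. It had 7.15, 10.3 and 10.7 FPKM in siINHBA libraries and 22.1, 24.3 and 23.8 FPKM in siNC libraries, or -1.30 on the log2 scale (SE 0.15, edgeR adjusted p = 1.8e-05). With TMM the CARD10 value was -0.21 and did not pass (edgeR adjusted p = 0.28). The remaining 3 were higher: EDARADD, the adaptor of the ectodysplasin receptor, by 2.12 on the log2 scale (SE 0.30), TANK, a TRAF-binding protein, by 1.32 (SE 0.17), and BIRC3, the ubiquitin ligase cIAP2, by 1.16 (SE 0.14).

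Each of the 6 sensors was higher, but most were expressed at a low level. ZBP1, a sensor of Z-form nucleic acid, was the most abundant, with 19.0, 15.5 and 24.4 FPKM in siINHBA libraries and 5.13, 3.08 and 4.96 FPKM in siNC libraries. ZBP1 was highest in siINHBA library 3, and the log2 fold change was 2.16 (SE 0.22, edgeR adjusted p = 7.5e-06). LOC101112936, annotated as an interferon-activable protein (a name from the mouse family of DNA-binding PYHIN proteins), had 6.70, 3.31 and 5.62 FPKM in siINHBA libraries and 0.784, 0.591 and 1.03 FPKM in siNC libraries. Library 2 was well below the other siINHBA libraries but above all of siNC, and the log2 fold change was 2.69 (SE 0.30). NLRP6, an inflammasome receptor best known from the intestine, had 0.959, 1.03 and 0.794 FPKM in siINHBA libraries and 0.179, 0.169 and 0.0607 FPKM in siNC libraries, or 2.73 on the log2 scale (SE 0.33, edgeR adjusted p = 2.2e-05). These values rest on 145, 170 and 148 counts in siINHBA and on 29, 28 and 11 counts in siNC. LOC114114868, annotated as NLRP3, rose by 1.55 (SE 0.28), NOD2, a sensor of bacterial muramyl dipeptide, by 1.34 (SE 0.30), and TLR1, a co-receptor for lipopeptides, by 1.20 (SE 0.28) on the log2 scale. NOD2 and TLR1, like NLRP6, stayed below 1 FPKM on average in either group, at 0.247 and 0.852 FPKM in siINHBA and at 0.0970 and 0.364 FPKM in siNC. NLRP genes and Toll-like receptors form families of similar sequence, and how shared reads were assigned is not given in the sources used here.

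Among the kinases 2 genes were higher and 6 lower, a share of 25.0% higher that is near the 34.3% of the whole sheet. With TMM 2 of the 6 falls, MAP2K6 and RPS6KA5, stayed called. MAPK12, the p38-gamma kinase, had 20.2, 18.3 and 18.8 FPKM in siINHBA libraries and 7.73, 7.82 and 7.71 FPKM in siNC libraries, or 1.29 on the log2 scale (SE 0.11, edgeR adjusted p = 3.4e-06). MAP2K6, which phosphorylates and activates p38 kinases, had 0.710, 0.998 and 0.942 FPKM in siINHBA libraries and 4.01, 3.57 and 4.64 FPKM in siNC libraries. The kinase and its activator thus moved in opposite directions: MAP2K6 was 4.61-fold lower in siINHBA, at -2.18 on the log2 scale (SE 0.21, edgeR adjusted p = 6.0e-06), and -1.10 with TMM (edgeR adjusted p = 0.0013). RPS6KA5, or MSK1, a kinase of histone H3 and CREB that acts below p38, had 0.834, 0.866 and 0.866 FPKM in siINHBA libraries and 2.69, 2.37 and 2.78 FPKM in siNC libraries. The siINHBA libraries were almost equal, at a log2 fold change of -1.55 (SE 0.15), and -0.46 with TMM (edgeR adjusted p = 0.031). MAP3K1, an upstream kinase of the JNK branch, had 3.92, 3.73 and 2.89 FPKM in siINHBA libraries and 7.08, 7.75 and 7.56 FPKM in siNC libraries. The groups were well apart at the recovered depth (log2 fold change -1.09, SE 0.14), while the TMM value was close to 0 (edgeR adjusted p = 0.99). MAP3K5, or ASK1, a stress-activated kinase upstream of p38 and JNK, rose by 1.45 (SE 0.15). ATM, the DNA damage kinase, and the JAK1-like LOC114112146 had log2 fold changes of -1.18 and -1.23. With TMM neither passed in edgeR (adjusted p 0.80 and 0.74).

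Both other transcription factors were lower at the recovered depth. FOS, a subunit of AP-1, had 4.78, 6.32 and 4.74 FPKM in siINHBA libraries and 10.9, 13.1 and 13.9 FPKM in siNC libraries, or -1.26 on the log2 scale (SE 0.16, edgeR adjusted p = 2.9e-05). IRF5, which acts below Toll-like receptors, was scarce, with 0.252, 0.146 and 0.402 FPKM in siINHBA libraries and 0.768, 0.588 and 0.634 FPKM in siNC libraries. The IRF5 libraries scattered widely within siINHBA, and the log2 fold change was -1.21 (SE 0.34, edgeR adjusted p = 0.0051), the highest adjusted p among the 57 genes. With TMM neither FOS (-0.17, edgeR adjusted p = 0.41) nor IRF5 (-0.12, edgeR adjusted p = 0.81) passed.

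Cell death genes were divided, with 3 higher and 3 lower. LOC101117272, annotated as caspase-13, an inflammatory caspase of ruminants related to CASP4, had 115, 83.1 and 91.4 FPKM in siINHBA libraries and 13.2, 13.4 and 13.8 FPKM in siNC libraries. It was 7.15-fold higher in siINHBA and was the second most abundant of the 57 genes there, at 2.83 on the log2 scale (SE 0.14, edgeR adjusted p = 2.7e-07). CFLAR, the caspase-8 inhibitor c-FLIP, had 7.62, 8.28 and 8.24 FPKM in siINHBA libraries and 3.90, 4.04 and 3.71 FPKM in siNC libraries, a log2 fold change of 1.09 (SE 0.12). BCL2A1, an anti-apoptotic BCL2 relative, rose by 2.65 (SE 0.41). GADD45G, a stress-induced growth arrest gene, was at -1.02 (SE 0.14). With TMM it was at 0.07, on the other side of 0 (edgeR adjusted p = 0.74).

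The 10 effector genes all rose. SOD2, the mitochondrial superoxide dismutase and a classical NF-kB target, was the most abundant of the 57 genes in siINHBA. It had 126, 113 and 105 FPKM in siINHBA libraries and 35.9, 34.6 and 30.1 FPKM in siNC libraries, or 1.77 on the log2 scale (SE 0.12, edgeR adjusted p = 8.8e-07). SELE, E-selectin, an adhesion molecule known from activated endothelium, had 13.7, 16.8 and 22.8 FPKM in siINHBA libraries and 3.02, 2.29 and 1.86 FPKM in siNC libraries. It was 7.43-fold higher in siINHBA (log2 fold change 2.89, SE 0.24, edgeR adjusted p = 2.3e-06). MMP13, a collagenase, had 1.59, 2.73 and 1.81 FPKM in siINHBA libraries, against 0, 0.0373 and 0.0368 FPKM in siNC libraries. With 79, 147 and 111 counts in siINHBA and 0, 2 and 2 counts in siNC, the MMP13 log2 fold change of 6.23 (SE 0.52) is imprecise, and the authors' deposited table gives 4.34.

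Among the other 7 effector genes the log2 fold changes ran from 1.43 for PLAU, the urokinase plasminogen activator, to 3.63 for LOC101103771, annotated as S100-A12. The LOC101103771 value is imprecise, resting on 114, 73 and 82 counts in siINHBA and 14, 0 and 7 counts in siNC. MMP1, the interstitial collagenase, rose by 1.55 (SE 0.23) and S100A9, an alarmin subunit, by 2.19 (SE 0.35). LOC101113636, annotated as VCAM1, and the ICAM1-like LOC101112563 rose by 3.14 (SE 0.38) and 2.62 (SE 0.52) at mean levels of 1.09 and 0.761 FPKM in siINHBA and of 0.118 and 0.121 FPKM in siNC. LOC101120395, annotated as GBP4-like, a guanylate-binding protein, rose by 1.83 (SE 0.29). Single libraries weighed on 2 of these genes: without siNC library 1, LOC101103771 was at 4.63 on the log2 scale (SE 0.69), and without siNC library 2, LOC101112563 was at 3.32 (SE 0.58). Leaving out each library in turn gave 3.06 to 4.63 for LOC101103771 and 2.15 to 3.32 for LOC101112563. Adhesion genes of endothelium and alarmins of myeloid cells can also come from other cells in the culture. Of 20 leukocyte markers only CSF1R was listed, at 0.176 to 0.231 FPKM in siINHBA libraries and 0.422 to 0.462 FPKM in siNC libraries. Of 10 endothelial markers KDR and VWF were listed, with a summed level of 0.117 to 0.213 FPKM in siINHBA libraries and 0.569 to 0.679 FPKM in siNC libraries. Of 12 markers of theca, stroma and smooth muscle, PDGFRB and DES were listed, with a summed level of 16.1 to 21.6 FPKM in siINHBA libraries and 63.0 to 65.9 FPKM in siNC libraries. These markers were lower in siINHBA at the recovered depth. So were 4 of the 5 listed granulosa cell markers. INHBA, counted among these 4, is the siRNA target, so its fall was set by the treatment. The other lower ones were INHA at -1.79, CYP11A1 at -1.46 and NR5A1 at -1.30 on the log2 scale. PDGFRB was at -1.62 and DES at -1.76, while HSD17B1 was at 1.41. Among the few listed markers, lower levels were found for granulosa cells and for other cell types, and 65.7% of all listed genes were lower. With TMM, CSF1R, VWF and NR5A1 did not pass in edgeR (adjusted p 0.95, 0.44 and 0.33). The other markers of the lists could not be seen in the sheet, and the part of other cells in the result was not tested. In bulk RNA, fewer cells of a type and less RNA per cell cannot be told apart.

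The remaining 9 genes are placed in these pathways by the deposited annotation and are less tied to NF-kB. Of these 3 were higher and 6 lower, a share of 33.3% higher that is near the 34.3% of the whole sheet. LOC101113604, annotated as POLR1D-like (POLR1D is a subunit of RNA polymerases I and III, and polymerase III can transcribe foreign DNA into a ligand of RIG-I), had 103, 75.1 and 83.1 FPKM in siINHBA libraries and 39.3, 36.2 and 37.5 FPKM in siNC libraries. It was at 1.21 on the log2 scale (SE 0.13), and a second POLR1D-like gene, LOC114112797, was at 1.23 (SE 0.30), with reads possibly shared. ARRDC4, an alpha-arrestin, had the deepest fall of the 57, with 6.55, 5.35 and 5.44 FPKM in siINHBA libraries and 31.0, 30.0 and 31.8 FPKM in siNC libraries. It was 5.35-fold lower in siINHBA (log2 fold change -2.42, SE 0.12, edgeR adjusted p = 2.7e-07). ITPR3, a calcium release channel of the endoplasmic reticulum, had 0.209, 0.276 and 0.232 FPKM in siINHBA libraries and 1.04, 0.992 and 1.10 FPKM in siNC libraries, a log2 fold change of -2.12 (SE 0.18). The leucine-rich repeat gene LRRN1 had 4.29, 4.66 and 4.38 FPKM in siINHBA libraries and 10.7, 11.5 and 10.8 FPKM in siNC libraries. LRRN1 was at -1.31 on the log2 scale (SE 0.11), while its relative LRRN3 was at 3.47 (SE 0.30). LRRN3 was scarce, with means of 0.825 FPKM in siINHBA and 0.0708 FPKM in siNC. Its siNC level rests on 15, 11 and 10 counts, and limma on log2(FPKM + 1) put it at 0.76. With TMM LRRN1 was at -0.22 and did not pass (edgeR adjusted p = 0.11). ANTXR1, an anthrax toxin receptor, was at -2.15 (SE 0.22), the cation channel TRPV2 at -1.36 (SE 0.12) and the uncharacterised LOC105611838 at -1.33 (SE 0.26).

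Higher genes outnumbered lower ones in all 7 pathways at the recovered depth, whereas 34.3% of all listed genes were higher. Differences between pathways were not tested. With TMM, lower calls remained only in NOD-like receptor (3), TNF (2) and Toll-like receptor (1) signalling. The cytosolic DNA-sensing pathway held 6 of the 57 genes, all higher. The NF-kappa B pathway held 16, of which 13 were higher and 3 (CARD10, ATM and GADD45G) lower. RIG-I-like receptor signalling had 7 higher and 2 lower, IL-17 signalling 8 higher and 3 lower, NOD-like receptor signalling 15 higher and 6 lower, and TNF signalling 12 higher and 6 lower. Toll-like receptor signalling was the most even, with 5 higher and 4 lower. These counts share genes: NFKBIA and NFKB1 belong to all 7 pathways, and the 4 genes in at least 4 of them, with TNFAIP3 and MAPK12, were all higher. Of the 39 genes in a single pathway 24 were higher and 15 lower. The 12 genes that belonged to NOD-like receptor signalling alone were split evenly, with 6 higher and 6 lower and a median log2 fold change of -0.04.

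**Figure D3:**
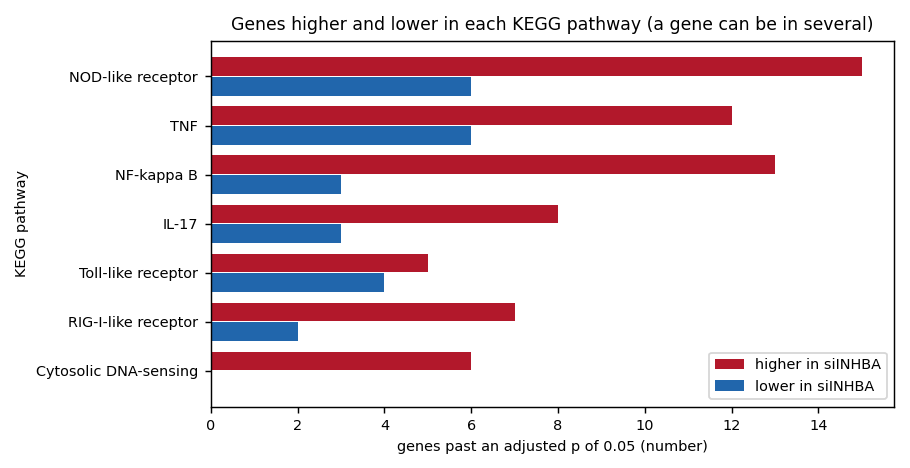
Number of the 57 genes (x axis) called higher (red) and lower (blue) in siINHBA against siNC in each of the 7 KEGG pathways (y axis), edgeR with the recovered depth. Higher genes outnumber lower ones in each pathway, from 5 against 4 in Toll-like receptor signalling to 6 against 0 in cytosolic DNA sensing.

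Of the KEGG terms that the choice of genes did not use, 3 that describe signalling or cell death are given here, picked after their counts were seen and without a test. The KEGG apoptosis pathway held 13 of the 57 genes, 6 higher and 7 lower, out of 22 among the 809 listed genes with a KEGG pathway. MAPK signalling held 13, 5 higher and 8 lower, out of 47, a split close to that of the whole sheet. C-type lectin receptor signalling held 9, 7 higher and 2 lower, out of 16. A gene can belong to several KEGG pathways, so these overlaps may follow from the choice of genes alone. For comparison, the 18 genes of the 7 pathways that were left aside as cytokines or their receptors had 15 higher and 3 lower, with a median log2 fold change of 2.38. In the RefSeq annotation of assembly ARS-UI_Ramb_v3.0, which named 53 of the 57 genes, several higher genes lay close together. S100A9 and LOC101103771 were adjacent, and BCL3 and RELB had 8 protein-coding genes between them. LOC101117272, MMP13, MMP1 and BIRC3 lay in 1 stretch in that order, with 5, 2 and 6 protein-coding genes in the gaps. MAP3K5 and TNFAIP3 had 6 between them. All of these were higher in siINHBA, as were 66.7% of the 57 genes. How often other listed genes lie this close was not computed, so a link between position and direction was not tested.

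Lists of known pathway genes, drawn up by function, overlap the 57 genes widely, so their counts mostly repeat genes described above. Of 18 inhibitors and feedback regulators of NF-kB, 9 were listed, 8 higher and 1 (SOCS3) lower, and 6 of the 9 are among the 57. The others were NFKBIZ, NFKBID and TNIP1. NFKBIZ, a nuclear IkB protein, had 33.1, 34.1 and 34.4 FPKM in siINHBA libraries and 3.03, 2.62 and 2.95 FPKM in siNC libraries. Its log2 fold change of 3.65 (edgeR SE 0.11, adjusted p = 3.9e-08) exceeded those of NFKBIA, NFKBIB and BCL3. TNIP1, an A20-binding protein, had 76.2, 94.2 and 105 FPKM in siINHBA libraries and 37.2, 32.7 and 33.2 FPKM in siNC libraries, a log2 fold change of 1.41 (SE 0.13). Of 38 innate sensors 5 were listed and all 5 were higher, 4 of them among the 57 and the other NLRC5, at 1.91 (SE 0.20). Of 16 kinases directly in the NF-kB pathway, RIPK2, one of the 57, was the only one listed. Of 22 adaptors and ubiquitin ligases 3 were listed, all higher and all among the 57. In the list of AP-1, CREB and C/EBP factors, FOS and CEBPD were the 2 of 15 listed, and they moved apart: CEBPD rose by 2.57 on the log2 scale (SE 0.13). Of 10 interferon regulatory factors and STATs, IRF7 and IRF8 were higher (1.11 and 1.23) and IRF5 lower. The list of 18 MAP kinases had 2 higher and 2 lower and that of 18 cell death genes 2 higher and 2 lower, all of them among the 57. That of 19 NF-kB effectors had 8 higher, of which 6 are among the 57, and that of 18 interferon-induced effectors had 2 higher (IFI44L and HERC5), neither among the 57.

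Levels within the siINHBA group were not ordered alike across the genes. Of the 38 higher genes, 14 had their highest siINHBA level in library 3 (36.8%, against 27.9% of all 555 listed higher genes), 18 in library 1 (47.4% against 47.2%) and 6 in library 2 (15.8% against 24.9%). Those highest in library 3 included all 3 NF-kB subunits, NFKBIA, NFKBIB, BCL3, TNFAIP3, TICAM1 and SELE. Those highest in library 1 included SOD2, IRAK3, RIPK2, TANK, BIRC3, LOC101117272 and both POLR1D-like genes. SELE, for example, was lowest in library 1 of the siINHBA group and TANK lowest in library 3. Library 3 was the deepest and library 1 the shallowest of the 6, and the part of depth in this pattern was not tested. In siNC, 24 of the 38 genes were highest in library 1 (63.2%, against 41.4% of all listed higher genes). The median coefficient of variation of the 38 higher genes was 16.4% in siINHBA and 21.7% in siNC, and that of the 19 lower genes 17.0% in siINHBA and 8.24% in siNC.

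**Figure D4:**
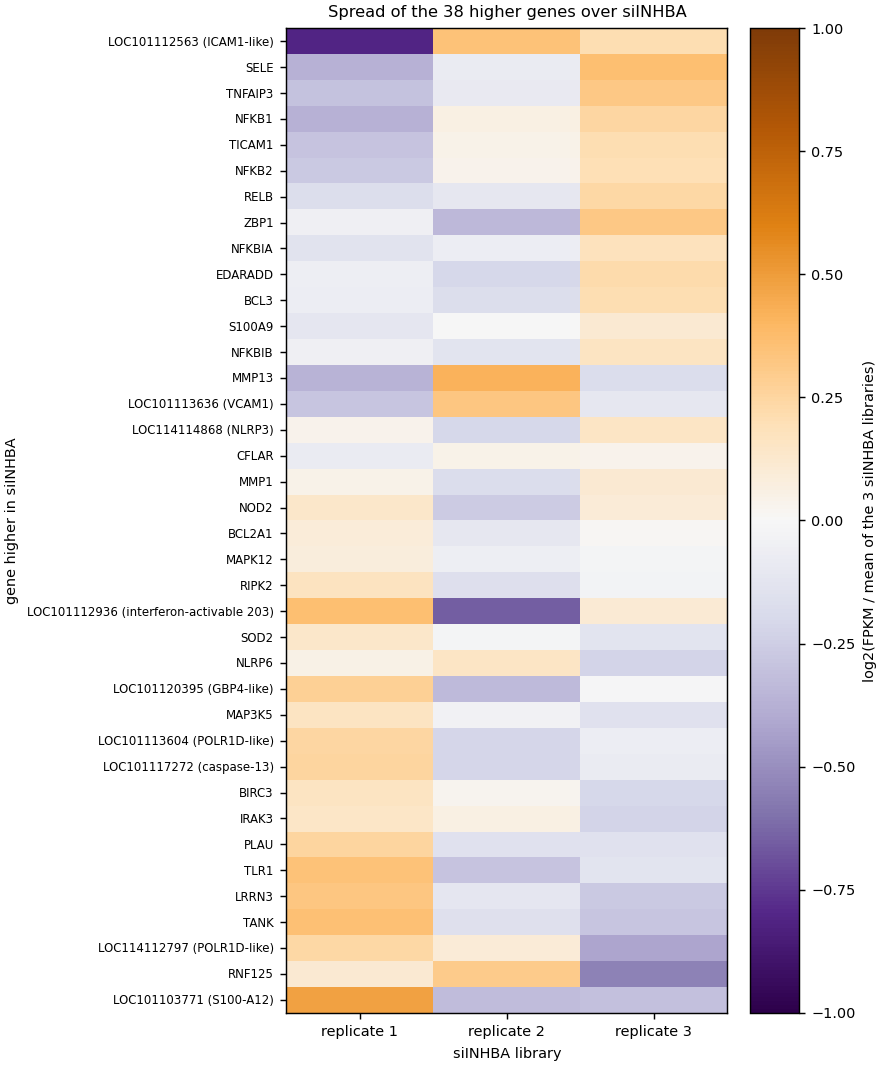
Log2 ratio of FPKM to the mean of the 3 siINHBA libraries (colour) for the 38 higher genes (rows) in each siINHBA library (columns), sorted by library 3 minus library 1. SELE, TNFAIP3 and the 3 NF-kB subunits lie near the top with their highest values in library 3, and TANK, RNF125 and S100-A12 near the bottom with library 3 below library 1.

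Expression levels covered a wide range. In siINHBA 16 of the 57 genes averaged at least 10 FPKM and 12 stayed under 1 FPKM, against 12 and 19 genes in siNC. The median of the 57 means was 3.47 FPKM in siINHBA and 3.63 FPKM in siNC. Fold changes of all 57 genes in the authors' deposited table shared their sign with the edgeR fit. They were smaller by more than 0.5 on the log2 scale for 4 genes, all with a mean of less than 1 FPKM in siNC: IRAK3, MMP13, LOC101103771 and LOC101112563. The 38 genes with at least 1 FPKM in siNC differed by at most 0.20.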

How the data were processed

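Per the labels' protocols, libraries were made from oligo(dT)-selected RNA by random priming. No source used here gives the strand setting, aligner, counter or genome build. Per the file headers, the deposited sheet gives the authors' raw read count and FPKM per gene and library, with their log2 fold change and false discovery rate, which is a p-value adjusted for many genes. The deposited rates reach 0.00895 at most and the absolute log2 fold changes begin at 1.00, so only called genes are listed. In all, 4 incomplete lines were left out.

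The test on counts of 1620 genes was glmQLFTest after filterByExpr and glmQLFit, in edgeR 4.0.16 under R 4.3.3. Library sizes were recovered from the median ratio of count to FPKM over 702 genes with more than 200 counts in every library, since TMM assumes that most genes do not change. The standard error is the absolute log2 fold change over the square root of F. FPKM means carry SDs with n = 3; the exact permutation p of 3 against 3 cannot go below 0.1. No library was a copy of another (mean chi-square per gene between replicates 5.37 to 8.86 in siNC and 17.65 to 47.9 in siINHBA). The siINHBA libraries thus differed more among themselves than the siNC libraries did. Scripts were tested on simulated data. Alternatives were TMM, DESeq2 1.42.0, limma 3.58.1 on log2(FPKM + 1), other filters, a replicate block and leaving out each library.

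The genes, lists and scaling were chosen with earlier results of these data known, and 1 list gene whose line was incomplete was taken off its list after the file was seen. Of the 57 genes, 3 enter the counts but are not reported singly here. The others could be named; values in every library are given for subunits and inhibitors, SOD2 and IRAK3, roles of 5 or fewer, and in other roles the 3 smallest adjusted p and the 2 highest mean FPKM. Roles were assigned by known function. Genes outside the 57 were named after their values were seen, apart from INHBA.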

Additional observations from a re-analysis of the deposited data

How the results depend on the processing

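Scaling was the setting that mattered. Under TMM over the listed genes, or DESeq2 with size factors of its own, the 38 higher genes kept their call, while 5 of the 19 lower genes passed under each of the 2. The sign turned in 3 genes, among them SOCS3 and GADD45G: the SOCS3 log2 fold change was 0.036 with TMM and 0.038 with DESeq2, and the GADD45G log2 fold change 0.068 and 0.068. A further 11 no longer passed. By their construction these scalings take out any change common to most of the sheet. Here they raised the median log2 fold change of all listed genes by 1.09 and 1.08, so the higher genes could hardly lose their call. Under each of the 2, the lists of AP-1, CREB and C/EBP factors, cell death genes, leukocyte markers and endothelial markers had 1, 2, 0 and 1 called genes. For the leukocyte list, no gene had an unadjusted p under 0.05 with either (CSF1R, 0.93 in edgeR with TMM and 0.95 in DESeq2). In limma with a filter of 1 FPKM, fewer genes were tested and the lists of sensors, interferon regulatory factors, leukocyte and endothelial markers had 2, 1, 0 and 0 called genes, each equal to the number tested.

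In the other 12 settings that give fold changes of the 57 genes, all 674 values kept their direction and call; limma with the 1 FPKM filter gave values for 47 genes. A pseudocount of 1 shrinks low genes: NOD2 was at 0.18 and MMP13 at 1.55 in limma. Leaving out 1 library gave 38 higher and 19 lower genes each time, NFKBIA between 2.37 and 2.63, IRAK3 between 3.52 and 4.66, and INHBA between -1.64 and -1.38. Since the authors had called every gene from these 6 libraries, the counts could hardly change. Nothing in the labels pairs libraries across groups. The deviations of same-numbered libraries from their group means had correlations of 0.11, 0.35 and -0.01, and siINHBA library 1 correlated better with siNC library 3 (0.18) than with its own number. With a replicate block 38 genes were higher and 19 lower, and INHBA was at -1.51. Requiring a 2-fold change left 38 higher and 19 lower genes. The authors' own fold changes begin at that size, so this cut could hardly remove any gene. Depth limits the genes with fewer than 30 counts in a siNC library, whose fold changes are imprecise.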
